A study of Mus musculus with 4 samples.

Results

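The genes described here mark the somatic cells of the testis, in RNA from cells that had been sorted for a germ cell marker. They are 10 genes in all: Sox9, Wt1, Gata4, Clu and Amh for Sertoli cells, and Star, Cyp11a1, Cyp17a1, Hsd3b1 and Insl3 for Leydig cells. They were chosen by name as standard markers of these cell types and not by a rule on values. Earlier results of these data were known when the choice was made. The gene tables hold 37718 rows. Of the 10 genes, 9 had a row of their own, while Insl3 was joined with its neighbour Jak3 in 1 row.

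The study compared Tdrd6+/- with Tdrd6-/- mice, which lack TDRD6, a tudor domain protein of germ cells. Total RNA was sequenced from hCD4+ cells isolated on magnetic beads (MACS) from testes at 20 dpp (days post partum), with 2 libraries of each genotype, each from cells of at least 4 mice pooled. The human CD4 tag was expressed from the endogenous Tdrd6 promoter in both genotypes, so the selection was for germ cells from the middle of meiotic prophase onwards. The paper reports that most of the isolated cells were diplotene spermatocytes. It also counted secondary spermatocytes and round spermatids among them. Counts of fragments on genes, exon segments, junctions and introns were available for each library. The labels do not say whether the pools of a genotype shared mice, so p-values measure only the spread between these libraries.

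Sertoli cells line the seminiferous tubule and surround and feed the germ cells. SOX9 and WT1 are transcription factors that set and keep their identity, GATA4 is a transcription factor of both Sertoli and Leydig cells, and AMH is the hormone by which the fetal testis removes the Müllerian ducts. Leydig cells lie between the tubules and make testosterone and INSL3, the peptide hormone of testis descent. In steroid synthesis STAR brings cholesterol to the inner mitochondrial membrane, CYP11A1 cleaves its side chain to pregnenolone, and HSD3B1 and CYP17A1 carry the product on towards androgens.

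The libraries held between 26454326 and 31388750 counts on gene rows and between 9603669 and 13937818 on introns. Introns took 31.0% and 27.1% of all tallied fragments in the Tdrd6+/- libraries and 27.4% and 21.9% in the Tdrd6-/- libraries, the lowest share being that of Tdrd6-/- replicate 2. Tdrd6 itself stood at 1269 and 1412 CPM (counts scaled to library size) in the Tdrd6+/- libraries and at 11.4 and 12.5 in the Tdrd6-/- libraries, a log2 fold change of -6.81 ± 0.17 (SE; adjusted p = 8.4e-18, edgeR quasi-likelihood test with Benjamini-Hochberg adjustment). The libraries thus went with their labelled genotypes.

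Sequences that tell apart forms of Wt1 and Insl3 are shown first, because the gene rows alone do not separate them. Wt1 has a pair of splice donors that differ by 9 bases (chr2:105170010-105170018, plus strand, mm10). Use of the downstream donor inserts lysine, threonine and serine (KTS) into the linker between the last zinc fingers, and +KTS and -KTS proteins differ in how they bind DNA. The 9 added bases are in capitals, and the lower-case bases around them are the flanking exon sequence of the GENCODE M21 transcripts.
Wt1 +KTS (Wt1-201): ggactcatacagGTAAAACAAgtgaaaagc
Wt1 -KTS (Wt1-202): ggactcatacaggtgaaaagc

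Insl3 (chr8:71689214-71690575, plus strand) lies at the 3′ end of Jak3, a kinase gene of cytokine receptors, and both genes splice into the same last exon. The upstream exon therefore tells the transcripts apart. In the lines below its last 15 bases are in capitals, followed by the first 15 bases of the shared exon.
Insl3-201: TGGAGACCCGGGACCgggagctgctgcagt
Jak3-201: CAGCCAGGGGCGAGAgggagctgctgcagt

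All 10 genes were detected, at levels far under those of spermatocyte genes. Levels between genes are given as CPM per kb of annotated exon, CPM being scaled by TMM factors (trimmed mean of M values). Clu was the highest at 13.7 ± 2.76 (SD over the 4 libraries), and Wt1 was next at 3.52 ± 0.61. Per kb of the longest transcript, which is shorter than all annotated exon, they stood at 26.1 and 7.05. Their ranges over the libraries did not meet, with 11.2 to 17.6 for Clu and 2.94 to 4.37 for Wt1, and the range of Wt1 did not meet that of Insl3 (0.428 to 2.60), the next in the order. Counts per kb of intron came to 83.9% of those per kb of exon in Wt1, 43.9% in Gata4 and 8.86% in Clu. The levels per kb of exon therefore do not stand for spliced RNA alone.

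Gata4 (1.03 ± 0.07), Amh (1.03 ± 0.22) and Star (1.03 ± 0.14) stood level with each other. Hsd3b1 reached 0.851 ± 0.405 and Sox9 0.455 ± 0.178. Cyp17a1 (0.436 ± 0.191) and Cyp11a1 (0.254 ± 0.0906) were the lowest, with Clu 54.2 times the level of Cyp11a1. From Insl3 (1.26 ± 0.94, on its own exon alone) down to Cyp11a1, each gene's range met that of the next, so neighbours in that order are not resolved. That exon of Insl3 lies within an intron of Jak3, so its level may include unspliced Jak3 RNA. Gata4, Amh and Star, none of them under 0.860 in any library, did lie above Sox9, Cyp17a1 and Cyp11a1, none of them over 0.717. The exon lengths are from GENCODE M21, whose exon segments differ in number from those counted for Wt1, Star, Cyp11a1, Cyp17a1 and Hsd3b1. For Cyp11a1 there are 16 annotated segments against 9 counted, so its level and its distance from Clu depend on the length used. Clu is the marker here least bound to 1 cell type, since it encodes the secreted chaperone clusterin and is made by many cells.

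**Figure D1:**
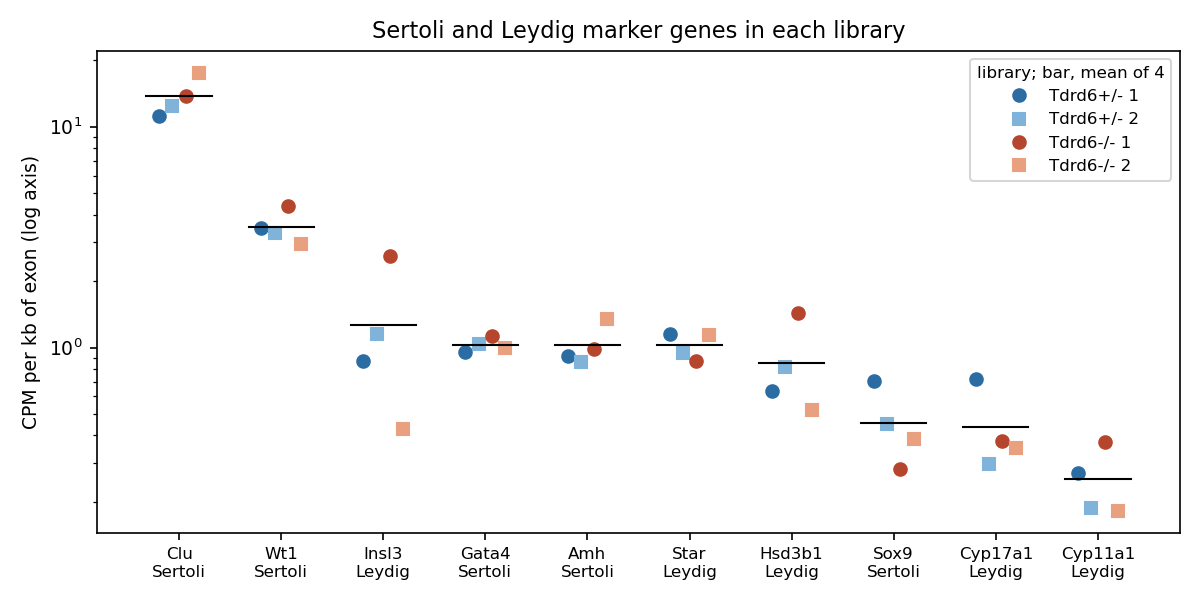
Level of each of the 10 genes in each library, in CPM per kb of annotated exon on a log axis; points are libraries and the bar is the mean of the 4. Clu lies above all others, from 11.2 to 17.6, and the 8 genes to the right of Wt1 overlap with their neighbours.

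The summed level of the 5 Sertoli genes was 17.3 and 18.1 CPM per kb in the Tdrd6+/- libraries and 20.5 and 23.2 in the Tdrd6-/- libraries, so that the genotypes did not overlap. Clu made up 69.5% of that sum. Without Clu the sums were 6.05 and 5.64 in Tdrd6+/- and 6.76 and 5.66 in Tdrd6-/-, and the genotypes overlapped.

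For the 4 Leydig genes with a row of their own the sums were 2.78 and 2.24 in Tdrd6+/- and 3.05 and 2.19 in Tdrd6-/-. Both genotypes thus held 1 higher and 1 lower library. The Sertoli sum was 6.21 and 8.07 times the Leydig sum in the Tdrd6+/- libraries and 6.73 and 10.6 times in the Tdrd6-/- libraries. This ratio depends on the length used: per kb of the longest transcript the mean sums were 35.8 for the Sertoli genes and 2.75 for the Leydig genes, against 19.8 and 2.57 per kb of all annotated exon.

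Set against 8 spermatocyte genes (summed level 3157 to 3976 CPM per kb, most of it from Ldhc, the testis lactate dehydrogenase), the Sertoli genes came to 0.546% and 0.561% in Tdrd6+/- and 0.616% and 0.584% in Tdrd6-/-. The Leydig genes came to 0.0880% and 0.0695% in Tdrd6+/- and 0.0916% and 0.0552% in Tdrd6-/-. These are ratios of RNA levels over chosen genes and not shares of cells, since in a bulk sample fewer cells of a type and less RNA per cell cannot be told apart.

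**Figure D2:**
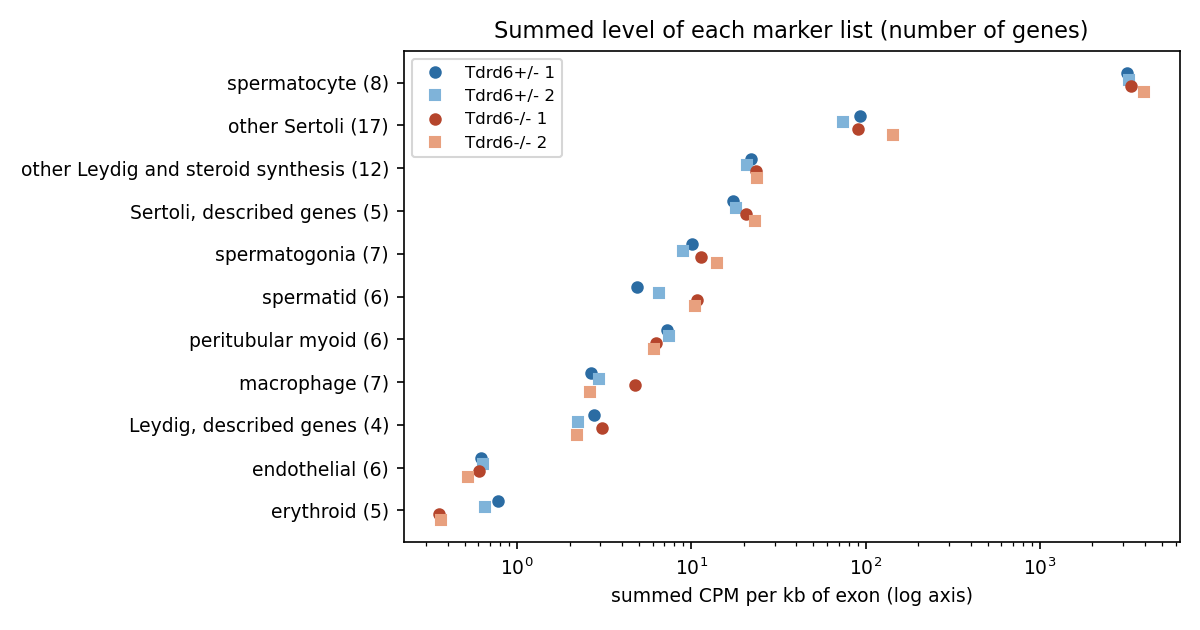
Summed CPM per kb of exon for each marker list on a log axis, with 1 point per library and the number of genes with a row of their own in brackets. Spermatocyte genes sum to between 3157 and 3976, the 5 Sertoli genes described here to between 17.3 and 23.2 and the 4 Leydig genes to between 2.19 and 3.05.

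The comparison of genotypes asked whether these somatic genes stood at different levels in Tdrd6-/- and Tdrd6+/- cells. With the false discovery rate (FDR) held at 0.1, edgeR called none of the 9 genes with a row of their own, against 4.80% of the 16555 gene rows tested. At an unadjusted p under 0.05 there were 2 of the 9, Clu and Sox9, and 2316 of all 16555 rows, and DESeq2 called none of them. The libraries of the genotypes did not overlap for 3 of the 9 genes, Clu and Amh being higher and Sox9 lower in both Tdrd6-/- libraries. Over all gene rows tested that share was 43.5%. The median log2 fold change was 0.11 over the 9 genes and 0.01 over all rows tested.

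Clu gave 1008 and 1190 counts (38.5 and 42.7 CPM) in the Tdrd6+/- libraries and 1498 and 1932 counts (47.4 and 60.4 CPM) in the Tdrd6-/- libraries. Both Tdrd6-/- libraries lay above both Tdrd6+/- libraries, with Tdrd6-/- replicate 2 highest. The log2 fold change was 0.41 ± 0.16 (SE; adjusted p = 0.200, edgeR). It passed the threshold only where libraries were scaled by all fragments tallied, introns included (log2 fold change 0.64, adjusted p = 0.0297), a scaling that moved the median of all gene rows from 0.01 to 0.24.

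Sox9 had its values in the other order, with 76 and 52 counts in Tdrd6+/- against 37 and 51 in Tdrd6-/- (2.90, 1.87, 1.17 and 1.59 CPM). The closest libraries of the genotypes differed by 1 count before scaling, and Tdrd6+/- replicate 1 stood highest. Its log2 fold change was -0.78 ± 0.34 (adjusted p = 0.280, edgeR). Without Tdrd6+/- replicate 1 it was -0.42, with adjusted p = 0.791 by the same test.

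Wt1 gave 564 and 567 counts in Tdrd6+/- against 856 and 582 in Tdrd6-/- (21.5, 20.4, 27.1 and 18.2 CPM). The Tdrd6-/- libraries were the highest and the lowest of the 4. The log2 fold change was 0.11 ± 0.19 (adjusted p = 0.874, edgeR), and it turned to -0.20 without Tdrd6-/- replicate 1.

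Gata4, with 98 and 113 counts in Tdrd6+/- against 139 and 124 in Tdrd6-/- (3.74, 4.06, 4.40 and 3.87 CPM), varied least over the libraries relative to its mean. Its log2 fold change was 0.08 ± 0.26 (adjusted p = 0.933, edgeR), and -0.0097 without Tdrd6-/- replicate 1. Amh gave 40 counts in each Tdrd6+/- library and 52 and 72 in Tdrd6-/- (1.53, 1.44, 1.64 and 2.25 CPM). Its 2 genotypes did not overlap, and at these counts the log2 fold change of 0.39 ± 0.33 did not pass (adjusted p = 0.677, edgeR).

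The 4 Leydig genes with their own row had between 139 and 495 counts over all libraries. Star gave 124 and 108 counts in Tdrd6+/- against 113 and 150 in Tdrd6-/- (4.74, 3.88, 3.57 and 4.69 CPM), a log2 fold change of -0.06 ± 0.26 (adjusted p = 0.956, edgeR). The ranges of the genotypes overlapped, and the fold change turned to 0.12 without Tdrd6-/- replicate 1.

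Cyp11a1 gave 34 and 25 counts in Tdrd6+/- against 57 and 28 in Tdrd6-/- (0.270, 0.187, 0.375 and 0.182 CPM per kb), with a log2 fold change of 0.29 ± 0.40 (adjusted p = 0.836, edgeR). Hsd3b1 gave 31 and 42 counts in Tdrd6+/- against 84 and 31 in Tdrd6-/- (1.18, 1.51, 2.66 and 0.969 CPM), with a log2 fold change of 0.43 ± 0.40 (adjusted p = 0.724, edgeR). After scaling, Tdrd6-/- replicate 1 was the highest library and Tdrd6-/- replicate 2 the lowest in both genes. Without Tdrd6-/- replicate 1 the fold changes of both turned negative, to -0.32 and -0.47.

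Cyp17a1 gave 52 and 23 counts in Tdrd6+/- against 33 and 31 in Tdrd6-/- (1.99, 0.826, 1.04 and 0.969 CPM). Tdrd6+/- replicate 1 stood apart from the other 3 libraries. The log2 fold change was -0.47 ± 0.41 (adjusted p = 0.685, edgeR) and turned to 0.30 without that library.

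Hsd3b1 has a close copy expressed in adult Leydig cells, Hsd3b6, whose transcript matched that of Hsd3b1 at 84.6% of 1751 aligned bases. How the counting divided reads between them is not given in the sources used here, so the split is uncertain. Hsd3b6 gave 27 and 36 counts in Tdrd6+/- against 77 and 38 in Tdrd6-/-, and its highest library was the same as for Hsd3b1.

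**Figure D3:**
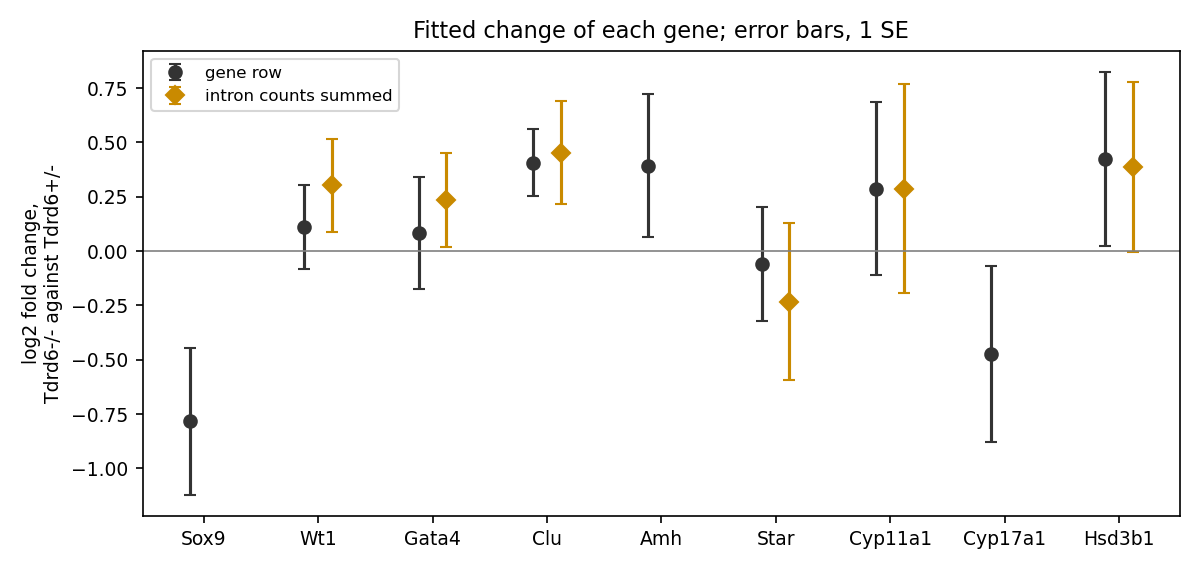
Fitted log2 fold change of each of the 9 genes, Tdrd6-/- against Tdrd6+/-, for gene rows (circles) and for intron counts summed per gene (diamonds, 6 genes), with error bars of 1 SE. Sox9 at -0.78 and Clu at 0.41 lie farthest from 0 relative to their error, and no value passed FDR 0.1.

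The joint row of Jak3 and Insl3 gave 208 and 392 counts in Tdrd6+/- against 411 and 394 in Tdrd6-/-, a log2 fold change of 0.20 ± 0.23 (adjusted p = 0.793, edgeR). Its 36 exon segments and 26 junctions matched the annotation of both genes in number, which allowed them to be placed. The segment that is exon of Insl3 alone (chr8:71689214-71689432, 219 bases, its upstream exon) held 5 and 7 counts in the Tdrd6+/- libraries and 18 and 3 in the Tdrd6-/- libraries. These are 33 of the row's counts over the 4 libraries, so the row follows Jak3. The segment lies within the last intron of Jak3 (chr8:71688163-71690171), so fragments of unspliced Jak3 RNA are not told apart there.

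With 95% exact Poisson intervals, which cover counting error only, the segment counts were 1.62 to 11.7 and 2.81 to 14.4 in Tdrd6+/- and 10.7 to 28.4 and 0.619 to 8.77 in Tdrd6-/-. The 2 Tdrd6-/- libraries were thus the highest and the lowest, and their intervals did not meet. The junction of Insl3 whose sequence is printed above was crossed by 4 and 3 fragments in Tdrd6+/- and 9 and 0 in Tdrd6-/-. The junction from Jak3 into the same exon had 2 and 3 in Tdrd6+/- and 6 and 5 in Tdrd6-/-. Over the 4 libraries each of the junctions reached 16 counts, so fragments of both transcripts were present. This measure of Insl3 was chosen after its values were seen, and no test was made on it.

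**Figure D4:**
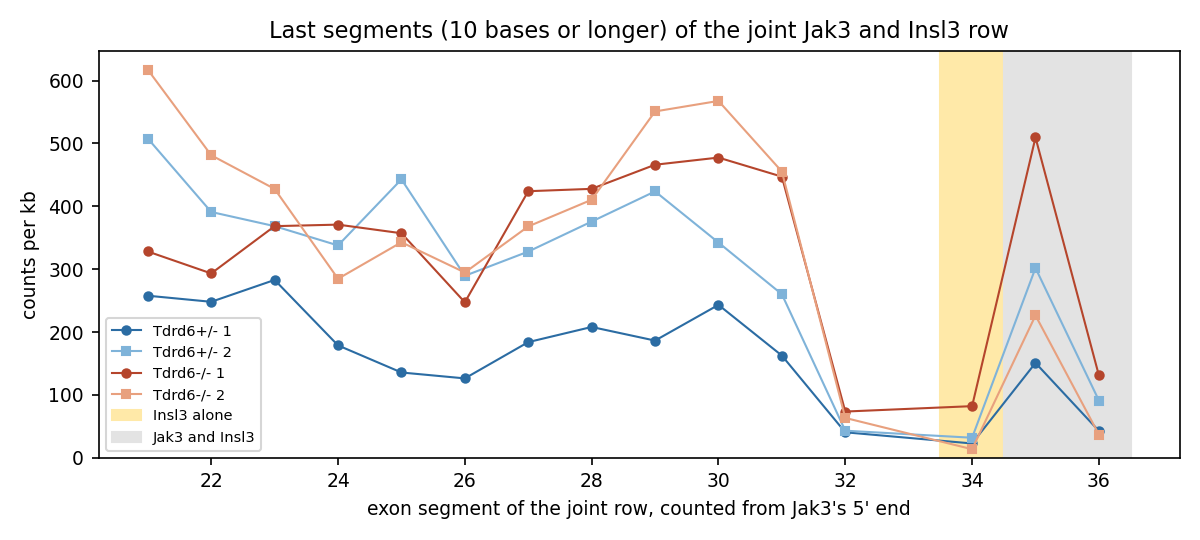
Counts per kb of the last exon segments of the joint Jak3 and Insl3 row, for segments of 10 bases or longer, in order from the 5′ end of Jak3; each line is a library. The segment of Insl3 alone (shaded yellow, 3 to 18 counts) overlaps over the libraries with Jak3 segment 32 (16 to 29 counts on 394 bases) and lies under the plotted segments of Jak3 before it, and the last exon, shared by both genes, is shaded grey.

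Tdrd6-/- replicate 1 was the highest library for Insl3, Hsd3b1, Cyp11a1, Wt1 and Gata4, and Tdrd6-/- replicate 2 was the highest for Clu and Amh. The other 3 genes, Sox9, Star and Cyp17a1, were highest in Tdrd6+/- replicate 1, as were 29.1% of all gene rows tested. Among the 9 genes with their own row, 4 were highest in Tdrd6-/- replicate 1, against 19.6% of all gene rows tested. The part of that library in the fold changes was not tested, and the fold changes that turned sign without it are given beside their genes above.

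Introns of these genes were read to set fragments of unspliced RNA apart from those of spliced RNA. Wt1 had 3073 and 3312 intron counts in Tdrd6+/- against 5397 and 2440 in Tdrd6-/-, several times its gene counts. Over the 4 libraries it had 5.54 intron counts for each gene count, which was above 95.8% of 12231 genes with at least 100 gene counts. Gata4 had 7.75 intron counts for each gene count, above 97.5% of these genes. The median gene had 0.494.

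Because such a ratio also depends on intron length, counts per kb were compared. The introns of Wt1 (40.9 kb) held 348 counts per kb over the 4 libraries and its exons 415, so that intron density was 83.9% of exon density. In Gata4 (68.9 kb of intron) it was 43.9%. Clu was the opposite case, at 8.86%, with 1637 counts per kb of exon against 145 per kb of intron. Amh (31.1%), Sox9 (32.8%) and Hsd3b1 (25.1%) lay between, the first 2 on 28 and 24 intron counts in total. In Hsd3b1 and Wt1 the exon segments counted differed in number from the annotation (9 against 6 and 24 against 26), so their densities are less certain.

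In Wt1 most counts fell in the largest intron, the 5th (chr2:105144193-105162807, 18.6 kb), with 1652 and 1837 in Tdrd6+/- and 3051 and 1277 in Tdrd6-/-. Its density was 420 counts per kb, and those of the other 8 introns ran from 160 to 448. Gata4, on the minus strand, had most in its 4th intron (chr14:63213608-63240535, 26.9 kb), with 463 and 503 in Tdrd6+/- and 767 and 334 in Tdrd6-/-. In both introns Tdrd6-/- replicate 1 was the highest library and Tdrd6-/- replicate 2 the lowest. In Clu the intron with most counts was the 11th (2.64 kb), with 72 and 96 in Tdrd6+/- and 147 and 96 in Tdrd6-/-.

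**Figure D5:**
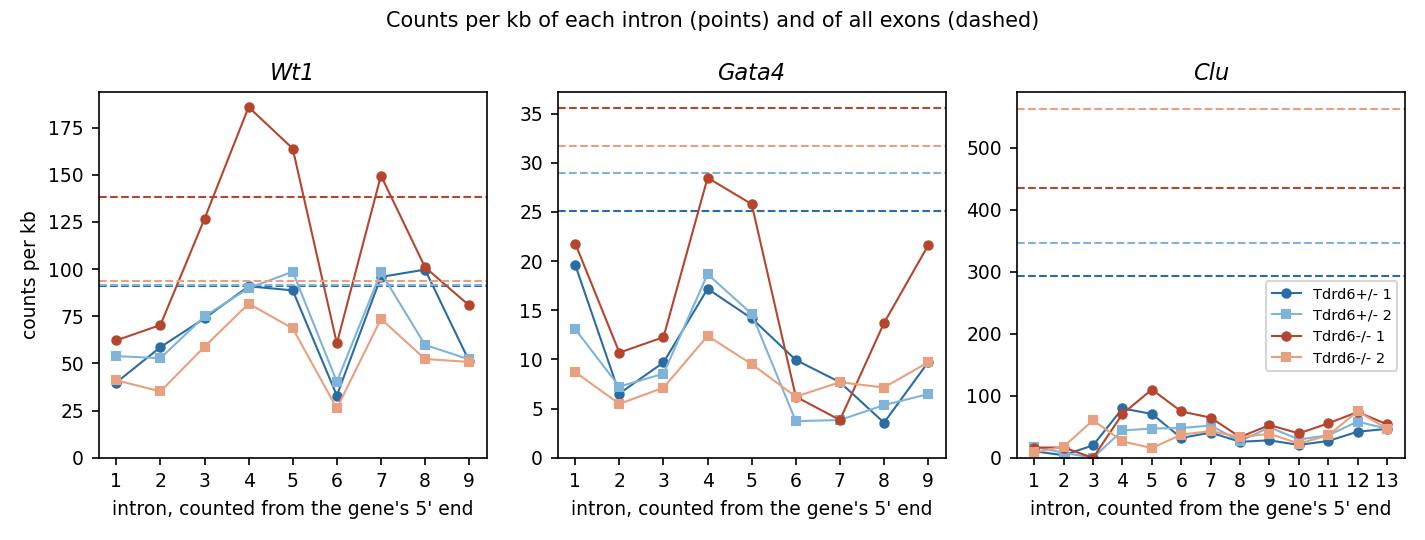
Counts per kb of each intron of Wt1, Gata4 and Clu, in order from the 5′ end (points, 1 line per library), with the counts per kb of all exons of the gene as dashed lines. Introns of Wt1 approach its exons, at 83.9% over all libraries, while those of Clu lie far under them, at 8.86%.

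Summed over introns, 6 of the 9 genes had enough counts for a test, and none was called, against 1.42% of the 15025 genes tested. None of the 6 had an unadjusted p under 0.05, and DESeq2 called none. The groups did not overlap for 1 of the 6, Clu, with 264 and 338 intron counts in Tdrd6+/- against 456 and 339 in Tdrd6-/-. That share was 43.5% over all genes tested. Clu had a log2 fold change of 0.45 ± 0.24 (adjusted p = 0.403, edgeR), close to that of its gene row.

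Wt1 had a log2 fold change of 0.30 ± 0.21 in intron counts (adjusted p = 0.567, edgeR) and Gata4 one of 0.24 ± 0.22 (adjusted p = 0.675, edgeR). Without Tdrd6-/- replicate 1 they were -0.12 and -0.19. Hsd3b1 (27, 37, 54 and 28 intron counts in the order of the libraries), Cyp11a1 (23, 12, 31 and 11) and Star (50, 58, 54 and 35) gave log2 fold changes of 0.39 ± 0.39, 0.29 ± 0.48 and -0.23 ± 0.36.

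Sox9, Amh and Cyp17a1 fell under the filter on low counts. Cyp17a1 had 25 intron counts in Tdrd6+/- replicate 1 and 4, 5 and 3 in the other libraries, and 12 of the 25 were in 1 intron, the 7th in the order of the files. That library was also the highest for its gene row. With Tdrd6+/- replicate 2 left out, so that Tdrd6+/- replicate 1 stood alone for its genotype, Cyp17a1 passed the filter and was called lower in Tdrd6-/- (log2 fold change -2.54, adjusted p = 0.0965, edgeR). Of the 6 genes tested, 5 were highest in Tdrd6-/- replicate 1, against 24.7% of all genes tested.

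Usage of single introns, meaning an intron's counts against the counts of the gene's other introns, was also compared. Of the 62 introns listed for these genes, 46 had at least 10 counts and were fitted. A further filter on the mean count left 11, all of them in Wt1, Gata4 and Clu. None was called, against 1.94% of the 28903 introns left in all, and the smallest adjusted p was 0.802 (DEXSeq model fitted in DESeq2), in the 4th intron of Wt1. The largest introns of Wt1 and Gata4 had log2 fold changes in usage of -0.01 ± 0.16 and -0.10 ± 0.18. At an unadjusted p under 0.05 there was 1 of the 46, the third intron of Cyp17a1, whose 14 counts were 4, 3, 4 and 3 in the order of the libraries and which was under the filter on the mean.

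Junctions gave the spliced side of the same genes. Clu had 0.603 junction counts for each gene count, with 596 and 718 in Tdrd6+/- and 876 and 1205 in Tdrd6-/-. Wt1 had 0.214, Gata4 0.160, Amh 0.275, Star 0.242, Cyp11a1 0.542, Cyp17a1 0.475 and Hsd3b1 0.255. These values also depend on the number and length of a gene's exons, so they do not rank the genes by splicing. Sox9 had 3 junction counts among 216 gene counts, and 176 counts fell on its last exon, which is 3089 of its 4135 exonic bases. Of the 48 junction counts of Hsd3b1, 33 came from Tdrd6-/- replicate 1, with 8 and 4 in Tdrd6+/- and 3 in Tdrd6-/- replicate 2.

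At the KTS donors of Wt1, 39 of 75 junction counts over the 4 libraries used the downstream donor, whose 9 added bases are printed above. This +KTS share was 40.0% (6 of 15, 95% exact binomial interval 16.3 to 67.7) and 47.6% (10 of 21, 25.7 to 70.2) in Tdrd6+/-. In Tdrd6-/- it was 59.1% (13 of 22, 36.4 to 79.3) and 58.8% (10 of 17, 32.9 to 81.6). Both Tdrd6-/- shares lay above both Tdrd6+/- shares. The intervals cover counting error only and overlapped between all libraries, and no test was made between genotypes. The 51-base alternative exon of Wt1 (chr2:105144142-105144192) was entered by 39 junction counts and skipped by 40, while 9 left it.

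The cell types that could also carry over were read from fixed lists of markers. Among 17 other Sertoli genes tested, 1 was called higher in Tdrd6-/- and none lower. Over all gene rows tested, 169 were called higher and 625 lower, 4.80% in either direction. The Sertoli gene called was Ctsl, the protease cathepsin L, with 22.1 and 22.3 CPM in Tdrd6+/- and 28.3 and 36.6 in Tdrd6-/- (log2 fold change 0.55 ± 0.17, adjusted p = 0.0919, edgeR). Fold changes were above 0 for 14 of the 17, with a median of 0.37, and for 8554 of all 16555 gene rows. Groups did not overlap for 8 of the 17, all of them higher in Tdrd6-/-. Over all 16555 gene rows tested, 3325 were higher and 3873 lower in both Tdrd6-/- libraries, 43.5% in either direction. Of the 17, 11 were highest in Tdrd6-/- replicate 2, against 28.7% of all gene rows tested.

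Per kb of exon the highest of these Sertoli genes were Aard and Cst12 (25.3 and 22.3 CPM per kb), with 33.9 and 23.0 CPM in Tdrd6+/- and 30.4 and 49.1 in Tdrd6-/- for Aard, and 13.7 and 10.1 against 11.7 and 22.9 for Cst12. In both, Tdrd6-/- replicate 2 stood apart from the other 3 libraries. The summed level of the list was 92.7 and 74.2 CPM per kb in Tdrd6+/- and 90.7 and 144 in Tdrd6-/-, so the genotypes overlapped. In intron counts, 11 of 18 of these genes were highest in Tdrd6-/- replicate 1.

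Of the other genes of Leydig cells and steroid synthesis, 10 were tested and none was called, against 4.80% of all gene rows tested. Their median log2 fold change was 0.15. The highest were Fdx1 (10.3 CPM per kb), the ferredoxin that passes electrons to CYP11A1, and Fdxr (5.23), its reductase, which are used in the mitochondria of many cells. Fdx1 and Fdxr had log2 fold changes of 0.12 ± 0.16 and -0.03 ± 0.19. The list summed to 22.0 and 20.9 CPM per kb in Tdrd6+/- and 23.3 and 23.6 in Tdrd6-/-.

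Macrophage genes, the highest being Mrc1 (1.63 CPM per kb) and Adgre1 (0.483), summed to 2.67 and 2.97 CPM per kb in Tdrd6+/- and 4.75 and 2.62 in Tdrd6-/-. Tdrd6-/- replicate 1 was the highest library, as it was for Insl3, Hsd3b1 and Cyp11a1, while Star and Cyp17a1 were highest in Tdrd6+/- replicate 1. None of the 5 macrophage genes tested was called, against 4.80% of all gene rows tested. Endothelial genes, led by Cdh5 (0.204) and Tek (0.105), summed to between 0.526 and 0.636, and erythroid genes, led by Hbb-bs (0.279) and Hba-a2 (0.107), to between 0.356 and 0.780.

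The peritubular myoid list summed to 7.22 and 7.47 CPM per kb in Tdrd6+/- and 6.27 and 6.06 in Tdrd6-/-, with 77.6% of it from Mylk, a myosin light chain kinase also made by other cells. The next gene of the list, Acta2, the smooth muscle actin, stood at 0.702. Mylk was not called in its gene row (log2 fold change -0.41 ± 0.14, adjusted p = 0.136, edgeR) and was lower in Tdrd6-/- in intron counts (-0.79 ± 0.21, adjusted p = 0.0407, edgeR).

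Genes of germ cells, from spermatogonia to spermatids, were read in the same way. Spermatogonia come before the stages at which the paper reports TDRD6, so they were not among the cells selected for. Among 8 spermatocyte genes Sycp1 (0.60 ± 0.16, adjusted p = 0.0467, edgeR) and Sycp2 (0.44 ± 0.14, adjusted p = 0.09997, edgeR, just under the threshold) were higher in Tdrd6-/-. Piwil1 (-0.44 ± 0.13, adjusted p = 0.0773, edgeR) was lower. Over all gene rows tested, 4.80% were called. Sycp1 and Sycp2 encode proteins of the synaptonemal complex and Piwil1 a piRNA-binding protein. The highest of the list, Ldhc (2591 CPM per kb) and Sycp3 (207), were not called. Of 6 genes of spermatids 2 were tested, the acrosomal genes Spaca1 (0.83 ± 0.22, adjusted p = 0.0359) and Acrv1 (0.96 ± 0.27, adjusted p = 0.0565), and both were higher in Tdrd6-/-. The protamine and transition protein genes Prm1, Prm2, Tnp1 and Tnp2 had 0 to 10 counts in each library.

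None of the 7 spermatogonial genes was called, against 4.80% of all gene rows tested. Led by Uchl1 (5.31 CPM per kb) and Dmrt1 (2.32, also a Sertoli gene), they summed to 10.02 and 8.92 in Tdrd6+/- and 11.4 and 14.0 in Tdrd6-/-. The genotypes did not overlap in that sum, and Tdrd6-/- replicate 2 was the highest. It was also the highest for Clu, Amh and the summed level of the other Sertoli genes. Wt1 and Gata4 were highest in Tdrd6-/- replicate 1 and Sox9 in Tdrd6+/- replicate 1. The part of these lists in the values of the 10 genes was not tested.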

How the data were processed

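The deposited files hold counts of fragments for each library, on genes, exon segments and junctions in 1 table and on introns in the other. The authors depleted ribosomal RNA, made strand-specific paired-end libraries, aligned with GSNAP to mm10 and annotated with Ensembl v75. The counting program is not given in the sources used here. Positions, exon lengths and sequences were read from GENCODE M21 on the same build. Segments and introns were placed only where their number matched the annotation (introns of 6 of the 10 genes). Gene rows and intron sums were tested in edgeR 4.0.16 (R 4.3.3; TMM, filterByExpr, quasi-likelihood test, Benjamini-Hochberg over all rows, FDR 0.1). Intron usage was tested with the DEXSeq model as a likelihood ratio test in DESeq2 1.42.0, on introns with at least 10 counts in total. Scripts were tested on simulated data. Only the 10 genes, Tdrd6 and, from each other list, genes called (at most 5) and the 2 highest were named; Hsd3b6, Jak3, the protamine and transition protein genes were added after their values were seen. The genes and lists were chosen with earlier results of these data known. Precision was limited by the spread between the 2 libraries of each genotype as well as by depth (26454326 to 31388750 gene counts per library). Alternatives were another tool, scaling, filter, length, a replicate block and leaving out each library.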

Additional observations from a re-analysis of the deposited data

How the results depend on the processing

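Gene calls numbered 794 (169 higher, 625 lower in Tdrd6-/-), 75 with no filter on low counts, and 257 to 1064 with a library left out (257 without Tdrd6-/- replicate 2). Scaling by all tallied fragments gave 1074 calls, 851 of them higher. Intron sums gave 214 calls, 394 by DESeq2, and 4 (without Tdrd6+/- replicate 1) to 951 (without Tdrd6-/- replicate 1). Without Tdrd6-/- replicate 2 the intron sums gave 79. Intron usage gave 561 calls, 2 by edgeR diffSpliceDGE, and 4 (without Tdrd6+/- replicate 1) to 1175 (without Tdrd6-/- replicate 1). It gave 12 without Tdrd6-/- replicate 2 and 333 without Tdrd6+/- replicate 2. The cause was not tested. Replicate numbers did not pair the libraries (correlation of deviations -0.10 over 12347 genes and -0.08 over 11335 intron sums). With the replicate block the calls were 1046 gene rows, 189 intron sums and 881 introns, and none of the 10 genes was among those called by any fit, apart from Clu with tallied fragments and the intron sum of Cyp17a1 without Tdrd6+/- replicate 2 (-2.54, adjusted p = 0.0965, edgeR). The summed Sertoli level of 19.8 CPM per kb was 12.97 by tallied fragments and 35.8 per kb of the longest transcript, and the Leydig level of 2.57 was 1.66 by tallied fragments. Star turned to 0.18 (log2) by tallied fragments. With a library left out, the log2 fold changes that turned sign ran from -0.20 to 0.38 for Wt1, -0.0097 to 0.18 for Gata4, -0.26 to 0.12 for Star, -0.32 to 0.73 for Cyp11a1, -0.98 to 0.30 for Cyp17a1 and -0.47 to 0.99 for Hsd3b1. In intron sums they ran from -0.12 to 0.62 for Wt1, -0.19 to 0.56 for Gata4 and -0.39 to 0.78 for Cyp11a1. In usage they ran from -0.36 to 0.22, -0.020 to 0.090, -0.13 to 0.11, -0.15 to 0.039 and -0.12 to 0.38 for introns 1, 3, 5, 6 and 9 of Wt1, and from -0.16 to 0.17 and -0.070 to 0.17 for introns 5 and 2 of Gata4.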
